A study of Rattus norvegicus with 50 samples.

Results

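Txnip encodes thioredoxin-interacting protein, an alpha-arrestin that binds thioredoxin, an antioxidant protein, and that limits glucose uptake by promoting the internalisation of glucose transporters. Its transcription is driven by glucose through the carbohydrate-sensing factors MondoA and ChREBP, and raised Txnip is well known from diabetic kidney. AMP-activated protein kinase (AMPK) phosphorylates the protein and marks it for degradation, so the transcript measured here and the protein can move apart. The gene was followed as the single row ENSRNOG00000021201, 1 of 32545 Ensembl gene IDs in the deposited table, across 50 libraries. The table gives no gene symbols, so the identity of this ID as rat Txnip was taken as given and was not checked against the files.

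The libraries came from the cortex and the medulla of kidneys of ZSF1 rats, a hybrid strain whose obese animals lack a working leptin receptor and develop diabetes with progressive kidney disease. Obese rats were given MK-8722, a direct activator of all AMPK complexes, at 1 or 10 mpk (the unit as labelled), or enalapril, an inhibitor of angiotensin-converting enzyme, at 10 mpk, or vehicle. Lean rats of the same strain were given vehicle. Treatment lasted 28 weeks per the labels, which also give an age of 20 weeks for every sample, and this age was not used. Each of the 10 groups, 5 in each tissue, held 5 libraries. No drug was given to lean rats, and the labels do not say which cortex and medulla libraries came from 1 animal or that replicates are separate animals, so the spread behind every p-value is that between libraries and may be technical. Cortex and medulla could not be checked by cell type markers, because the IDs carry no symbols. Whole tissue was sequenced, and fewer cells of a type and less RNA per cell cannot be told apart.

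Values are FPKM (fragments scaled to the length of the transcript and the total of the library). Absolute depth is unknown, and relative depth, read from the spacing of low values, ran from 0.599 to 1.53 around a geometric mean of 1. Libraries also differed in overall scale: the median ratio of a library's expressed genes to their mean over all libraries ran from 0.817 to 1.22. Txnip was therefore examined both as deposited and after division by that ratio, called rescaled below. Log2 fold changes are on the log2(FPKM + 0.5) scale with their standard error (SE), and a gene was called at a Benjamini-Hochberg adjusted p under 0.05 in limma, a linear model fitted over all genes of the table that passed a filter on low values.

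Txnip was higher in obese than in lean vehicle rats in both tissues. In cortex the gene stood at 113, 127, 80.1, 65.0 and 133 FPKM in the 5 obese vehicle libraries, against 48.7, 51.6, 46.1, 59.2 and 45.2 FPKM in the 5 lean vehicle libraries. Every obese library lay above every lean one, and the lowest obese library, at 65.0 FPKM, came near the highest lean one, at 59.2 FPKM. The means were 104 ± 29.7 FPKM in obese vehicle and 50.2 ± 5.65 FPKM in lean vehicle cortex (SD, n = 5 each), a ratio of 2.07. The corresponding log2 fold change was 0.99 ± 0.15 (SE, limma adjusted p = 9.13e-06). Such calls were common in this comparison: 54.3% of 13579 tested genes were called higher, and for 36.4% the 5 obese values all lay above the 5 lean ones. The median log2 fold change over all tested genes was 0.30, and 11.2% of them had a larger one than Txnip. After rescaling the change was 0.67 ± 0.12 (limma adjusted p = 6.18e-05), where 24.2% of genes were called higher.

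The difference was larger in medulla. Txnip stood at 154, 184, 123, 186 and 235 FPKM in obese vehicle medulla, against 49.8, 46.6, 51.7, 62.4 and 46.4 FPKM in lean vehicle medulla. The lowest obese library was well above the highest lean one. The means were 176 ± 41.7 FPKM in obese vehicle and 51.4 ± 6.54 FPKM in lean vehicle medulla (SD, n = 5 each), a ratio of 3.44. On the log2 scale the change was 1.75 ± 0.15 (SE, limma adjusted p = 1.05e-09), against a median of 0.37 over all 14195 tested genes. In this comparison 56.8% of genes were called higher and 45.7% had obese values wholly above the lean ones, but only 4.20% had a larger log2 fold change than Txnip. After rescaling the change was 1.39 ± 0.14 (limma adjusted p = 9.03e-09), with 29.3% of genes called higher. Exact two-sided permutation tests gave p = 0.00794 in each tissue, the smallest that 5 against 5 libraries allow (adjusted p = 0.0144 over 20 comparisons).

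**Figure D1:**
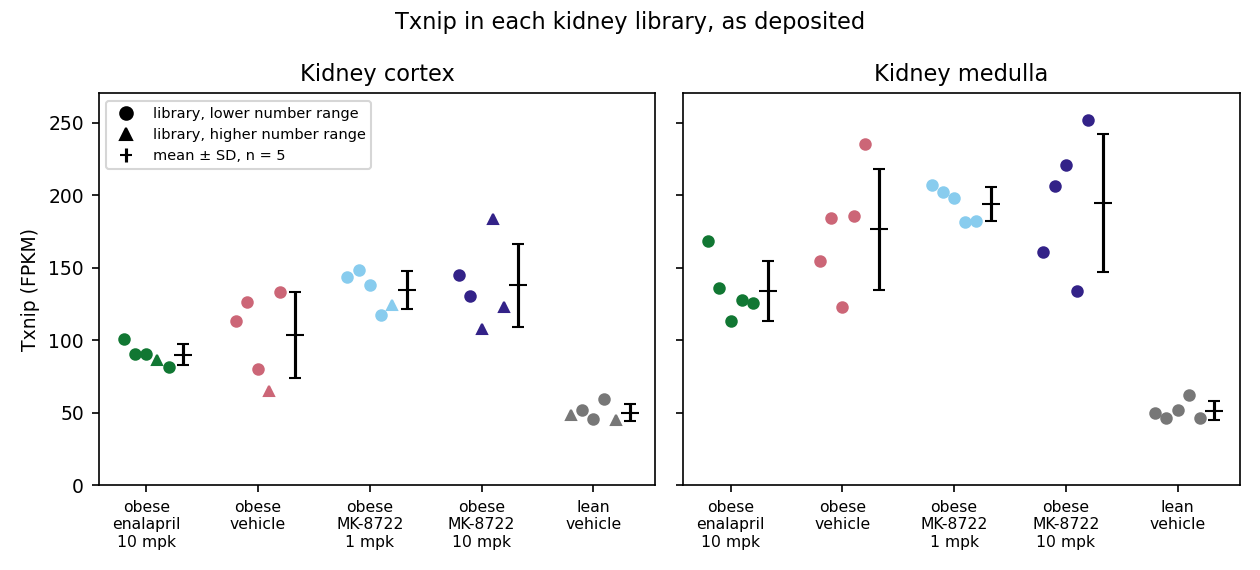
Txnip in FPKM, as deposited, in each of the 5 libraries of every group (points, with triangles for the 8 cortex libraries of the higher library number range), with the group mean ± SD beside them (black). Lean vehicle libraries lie between 45.2 and 62.4 FPKM in both tissues, and every obese library lies at 65.0 FPKM or above.

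The position of Txnip within each library, which no scaling of a library can alter, moved the same way. Ranked from the most abundant ID down, Txnip was at places 379 to 788 (median 476) in obese vehicle and 834 to 1070 (median 1026) in lean vehicle cortex. In medulla it was at places 219 to 395 (median 261) in obese vehicle and 796 to 1123 (median 998) in lean vehicle libraries. The ranges did not overlap in either tissue, and the same separation towards higher places in obese vehicle was seen in 16.1% of tested genes in cortex and 20.7% in medulla.

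Relative depth differed between these groups too. It averaged 1.02 ± 0.212 in obese vehicle and 1.36 ± 0.0811 in lean vehicle cortex, and 0.727 ± 0.0816 in obese vehicle and 1.13 ± 0.0773 in lean vehicle medulla (SD, n = 5 each). The 2 obese vehicle cortex libraries with the lowest Txnip were those with the highest relative depth of their group, 1.13 and 1.34. With relative depth as a term in the model, the log2 fold change was 0.70 ± 0.17 in cortex (limma adjusted p = 0.00255) and 1.42 ± 0.22 in medulla (limma adjusted p = 3.71e-05). In medulla the depths did not overlap, at 0.599 to 0.815 in obese vehicle and 0.992 to 1.18 in lean vehicle. Obesity and depth cannot be told apart there. In cortex only obese vehicle replicate 5, at 1.34, reached the lean range of 1.26 to 1.43.

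**Figure D2:**
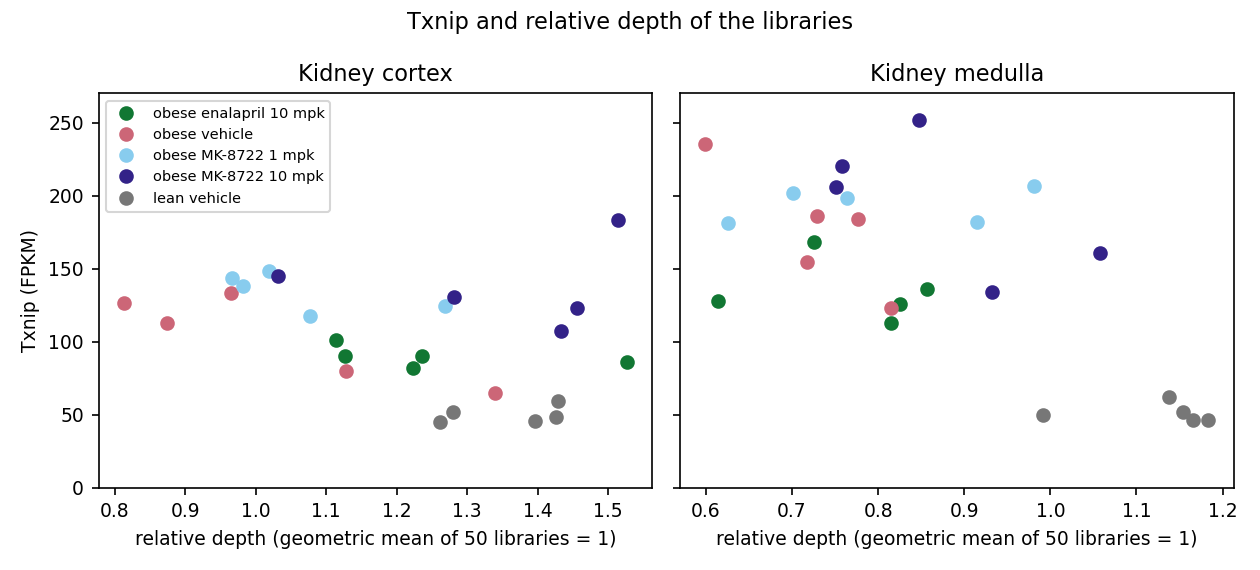
Txnip in FPKM (vertical axis) against the relative depth of each library (horizontal axis), 25 libraries in each tissue, coloured by group. The obese vehicle cortex libraries with 65.0 and 80.1 FPKM have relative depths of 1.34 and 1.13, and lean libraries lie at the deep end in medulla.

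No difference between the tissues was detected in lean rats, and on the deposited values Txnip was lower in cortex than in medulla in every obese group. In lean vehicle rats it averaged 50.2 ± 5.65 FPKM in cortex and 51.4 ± 6.54 FPKM in medulla (SD, n = 5 each), a log2 difference of -0.03 ± 0.16 (SE, limma adjusted p = 0.899) with a 95% interval of -0.35 to 0.29, where 39.9% of 14586 genes were called in either direction. The sign of this small difference flipped to 0.09 after rescaling. In obese vehicle rats cortex was lower than medulla by a log2 difference of -0.78 ± 0.16 (limma adjusted p = 8.70e-05), where 35.1% of genes were called lower in cortex. The test of the difference itself, the cortex effect of obesity minus the medulla effect, gave -0.75 ± 0.22 (SE, limma adjusted p = 0.0390), a call shared by 1.93% of genes in that direction. After rescaling it was -0.73 ± 0.19 (limma adjusted p = 0.0105), with 2.49% of genes called lower.

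This difference in the size of the obesity effect lay near the threshold. It kept its sign but missed the threshold when any 1 of 12 of the 20 libraries was left out. Without cortex lean vehicle replicate 1, 2 or 6 it was -0.76, -0.74 and -0.69 (limma adjusted p of 0.0508, 0.0557 and 0.0851). Without cortex obese vehicle replicate 3 or 5 it was -0.67 and -0.60 (limma adjusted p of 0.0836 and 0.102). Without medulla lean vehicle replicate 1, 3, 5 or 7 it was -0.74, -0.72, -0.76 and -0.72 (limma adjusted p of 0.0575, 0.0742, 0.0543 and 0.0658), and without medulla obese vehicle replicate 4, 6 or 7 it was -0.73, -0.73 and -0.64 (limma adjusted p of 0.0697, 0.0699 and 0.114). Adding relative depth to the model gave -0.63 (limma adjusted p = 0.0608).

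In the treated obese groups cortex was again below medulla. With enalapril the log2 difference was -0.56 ± 0.16 (SE, limma adjusted p = 0.00304), with MK-8722 1 mpk -0.53 ± 0.16 (limma adjusted p = 0.00785) and with MK-8722 10 mpk -0.48 ± 0.16 (limma adjusted p = 0.0110). Of the tested genes, 41.6%, 21.4% and 36.2% were called lower in cortex in these comparisons. For enalapril and MK-8722 1 mpk no cortex value reached the lowest medulla value, a separation seen in 28% and 15.7% of genes. Cortex libraries were the deeper ones, and with relative depth as a term these differences were -0.14, -0.27 and -0.10 (limma adjusted p of 0.681, 0.251 and 0.767), whereas that of obese vehicle was -0.50 ± 0.17 and was still called (limma adjusted p = 0.0230). With enalapril the depths did not overlap, at 1.11 to 1.53 in cortex and 0.614 to 0.857 in medulla, so tissue and depth cannot be told apart there. In the other obese groups they overlapped only at their edges. For MK-8722 10 mpk, same-numbered cortex and medulla libraries deviated together, for the 3 numbers that they share. With the replicate number as a block, in a fit of these groups alone, the difference was -0.43 (limma adjusted p = 0.108), with 2292 genes called. It rests on the 3 shared numbers. The 6913 calls of the fit of all groups are not a like count. The exact permutation test gave p = 0.0556 (adjusted p = 0.0694 over 5 comparisons). The log2 difference was -0.30 after rescaling (limma adjusted p = 0.0579), -0.40 without cortex MK-8722 10 mpk replicate 5 (limma adjusted p = 0.0520) and -0.38 without medulla MK-8722 10 mpk replicate 6 (limma adjusted p = 0.0572).

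Enalapril gave no called change of Txnip against obese vehicle. In cortex the enalapril libraries held 101, 90.5, 90.4, 86.3 and 81.7 FPKM, all within the range of the obese vehicle libraries. They were close together, with a mean of 90.0 ± 7.21 FPKM against 104 ± 29.7 FPKM in obese vehicle (SD, n = 5 each). The log2 fold change was -0.15 ± 0.15 (SE, limma adjusted p = 0.472), with a 95% interval of -0.47 to 0.16, and its sign flipped to 0.04 after rescaling. Single libraries moved it, to -0.31 without obese vehicle replicate 5 and to -0.049 without obese vehicle replicate 6, and in the lower number range alone it was -0.29 (limma adjusted p of 0.0807, 0.848 and 0.0987). In this comparison 14.4% of genes were called in either direction. In medulla the enalapril libraries held 168, 136, 113, 128 and 126 FPKM, a mean of 134 ± 20.8 FPKM against 176 ± 41.7 FPKM in obese vehicle (SD, n = 5 each). The groups overlapped, with 3 of the obese vehicle libraries above every enalapril library. The corresponding log2 fold change was -0.37 ± 0.15 (SE, limma adjusted p = 0.101; 95% interval -0.69 to -0.06), or -0.25 after rescaling (limma adjusted p = 0.294), and 10.6% of genes were called in either direction. Without medulla obese vehicle replicate 5, the lowest of its group, it was -0.50 and was called (limma adjusted p = 0.0299). The test of whether the effect of enalapril differed between the tissues gave 0.22 ± 0.22 (SE, limma adjusted p = 0.996), with 0.00686% of genes called.

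Mean Txnip was higher under MK-8722 than in obese vehicle rats at both doses and in both tissues, but of these 4 differences only that at 10 mpk in cortex was called. In cortex the log2 fold change at 1 mpk was of like size, 0.42 against 0.44, with an unadjusted limma p of 0.0112 against 0.00852. The adjusted p also depends on the other genes tested. Cortex libraries at 10 mpk held 145, 131, 107, 183 and 123 FPKM, a mean of 138 ± 28.7 FPKM against 104 ± 29.7 FPKM in obese vehicle (SD, n = 5 each). The deposited values overlapped: 2 libraries at 10 mpk lay above every obese vehicle library. On the log2 scale the change was 0.44 ± 0.15 (SE, limma adjusted p = 0.0375), while the median over all genes was -0.19. Rises were rare on the deposited values, with 2.12% of genes called higher (288, against 3327 called lower), and 2.11% had a larger log2 fold change than Txnip. After rescaling the 5 values at 10 mpk, 132 to 187, all lay above the obese vehicle values of 69.6 to 122, a separation in this direction seen in 3.11% of genes. The rescaled log2 fold change was 0.65 ± 0.12 (SE, limma adjusted p = 0.00102), with 4.52% of genes called higher (615, against 471 called lower).

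The call on the deposited values in cortex was weak. It was lost without obese vehicle replicate 3 or 5 (0.36 and 0.29, limma adjusted p of 0.0855 and 0.0971), without MK-8722 10 mpk replicate 2, 4 or 6 (0.42, 0.45 and 0.33, limma adjusted p of 0.0554, 0.0574 and 0.0912), and in the exact permutation test (p = 0.127, adjusted p = 0.169 over 20 comparisons). The libraries carry numbers in a lower and a separate higher range, and of the 8 cortex libraries of the higher range 3 were MK-8722 10 mpk, 1 each MK-8722 1 mpk, enalapril and obese vehicle, and 2 lean vehicle. Within the lower range the change was 0.31 (limma adjusted p = 0.208), and with the range as a term 0.52 (limma adjusted p = 0.0221). The higher range, with 107, 183 and 123 FPKM at 10 mpk against 65.0 FPKM in its only obese vehicle library, holds too few libraries for a test. Relative depth was 1.34 ± 0.194 at 10 mpk and 1.02 ± 0.212 in obese vehicle cortex (SD, n = 5 each), and with it as a term the change was 0.72 ± 0.16 (SE, limma adjusted p = 0.0138). Same-numbered libraries of these groups deviated together, for the 3 numbers that they share. With the number as a block, in a fit of these 2 groups alone, the change was 0.46 (limma adjusted p = 0.0376), with 2078 genes called. That estimate rests on the 3 shared numbers, and libraries with an unshared number add nothing to it. The same fit without the block gave 0.44 (limma adjusted p = 0.175), with 104 genes called higher and 411 lower. The 3615 calls of the fit of all cortex groups are not a like count. With depth as a term beside the block the change was 0.61 ± 0.22 (SE, limma adjusted p = 0.259).

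**Figure D3:**
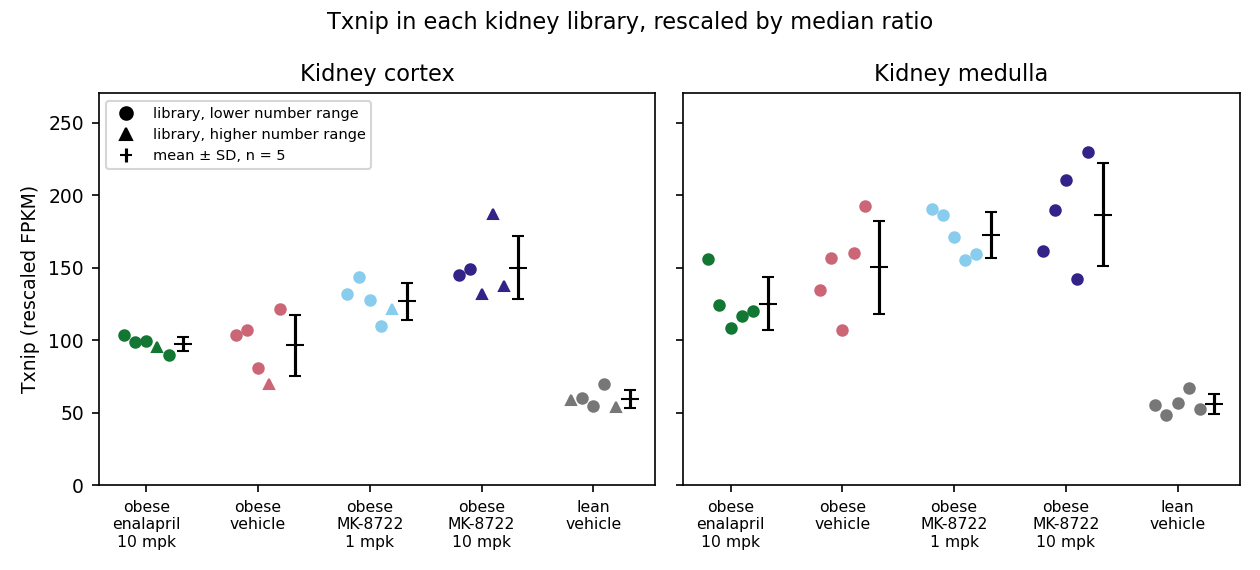
Txnip after each library was divided by its median ratio (rescaled FPKM), in each of the 5 libraries of every group, with mean ± SD (black) and symbols as in the plot of deposited values. In cortex the MK-8722 10 mpk libraries span 132 to 187 and the obese vehicle libraries 69.6 to 122.

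In medulla the MK-8722 10 mpk libraries held 160.5, 206, 221, 134 and 252 FPKM, a mean of 195 ± 47.2 FPKM against 176 ± 41.7 FPKM in obese vehicle (SD, n = 5 each). The groups overlapped, with 1 library at 10 mpk above every obese vehicle library. The log2 fold change was 0.14 ± 0.15 (SE, limma adjusted p = 0.528; 95% interval -0.18 to 0.45), or 0.32 ± 0.14 after rescaling (limma adjusted p = 0.190), where 18.1% of genes were called in either direction on the deposited values. It was 0.015 without obese vehicle replicate 5, 0.26 without MK-8722 10 mpk replicate 5 and 0.27 with relative depth as a term, none of them called. Whether the effect of 10 mpk differed between the tissues was tested directly, with a result of 0.30 ± 0.22 (SE, limma adjusted p = 0.786) and 0.226% of genes called.

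At 1 mpk the cortex libraries held 144, 148, 138, 118 and 124 FPKM, a mean of 134 ± 13.0 FPKM against 104 ± 29.7 FPKM in obese vehicle (SD, n = 5 each). Of these, 3 lay above every obese vehicle library. The corresponding log2 fold change was 0.42 ± 0.15 (SE, 95% interval 0.10 to 0.74) and was not called (limma adjusted p = 0.999). It was 0.27 without obese vehicle replicate 5 and 0.52 without obese vehicle replicate 6. In this comparison 0% of genes were called, and 583 of 13579 had an unadjusted p under 0.05 in limma, with Txnip at 0.0112. After rescaling the change was 0.41 ± 0.12 (limma adjusted p = 0.944), and the exact two-sided permutation test on rescaled values gave p = 0.0238 (adjusted p = 0.0340 over 20 comparisons), against p = 0.0635 (adjusted p = 0.0977) on the deposited values. In medulla the libraries at 1 mpk held 207, 202, 198, 181 and 182 FPKM, a mean of 194 ± 11.7 FPKM against 176 ± 41.7 FPKM in obese vehicle (SD, n = 5 each). They were within the obese vehicle range. On the log2 scale the change was 0.17 ± 0.15 (SE, limma adjusted p = 0.9998; 95% interval -0.15 to 0.49), again with 0% of genes called, and 577 of 14195 genes had an unadjusted p under 0.05 in limma. It was 0.046 without obese vehicle replicate 5 and 0.28 without obese vehicle replicate 7. The effect of 1 mpk in cortex minus that in medulla was 0.25 ± 0.22 (SE, limma adjusted p = 0.999).

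No difference between the doses of MK-8722 was detected. Txnip at 10 mpk stood against that at 1 mpk with a log2 ratio of 0.02 ± 0.15 in cortex (SE, limma adjusted p = 0.935; 95% interval -0.30 to 0.33) and of -0.03 ± 0.15 in medulla (limma adjusted p = 0.916; 95% interval -0.35 to 0.29). In these comparisons 30.2% and 5.92% of genes were called in either direction. After rescaling the differences were 0.24 ± 0.12 (limma adjusted p = 0.207) and 0.10 ± 0.14 (limma adjusted p = 0.776). On the deposited values the median of the tested genes between these doses was -0.21 in cortex and -0.13 in medulla, a shift that rescaling brought to -0.0046 and -0.014.

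**Figure D4:**
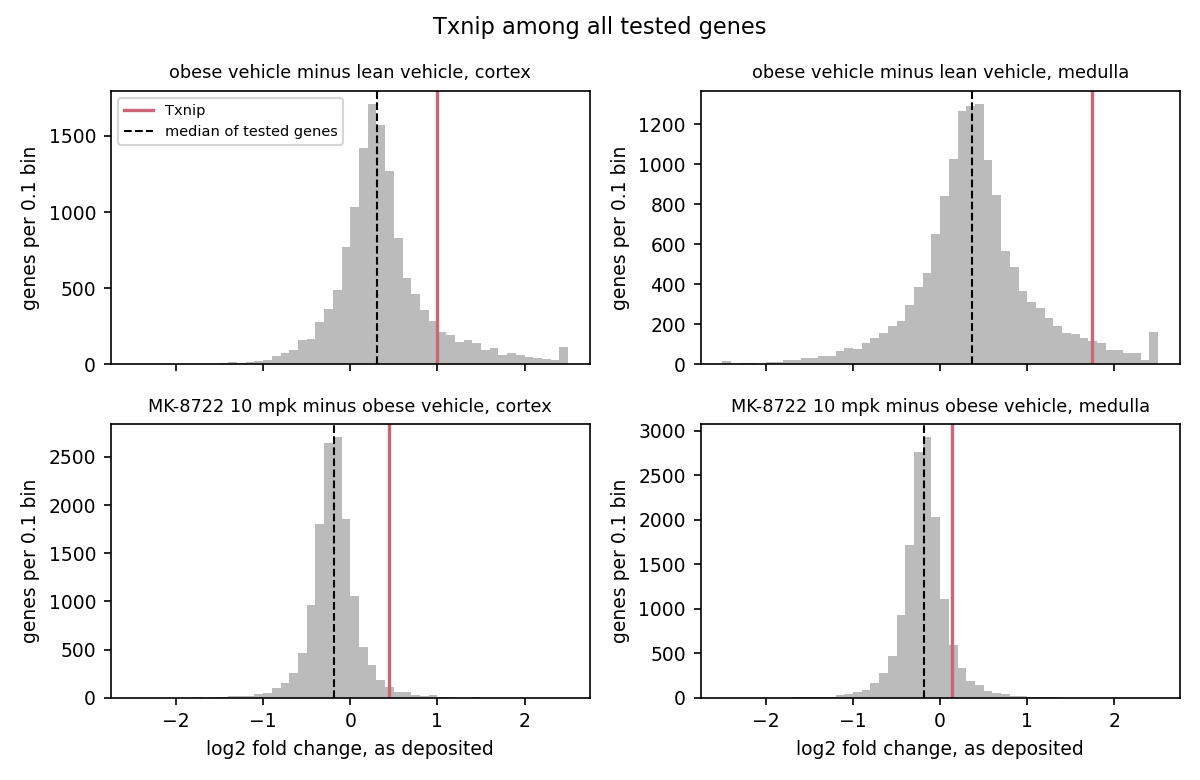
Number of tested genes per 0.1-wide bin of log2 fold change, as deposited, for obese vehicle minus lean vehicle (top) and MK-8722 10 mpk minus obese vehicle (bottom) in cortex and medulla, with Txnip (red line) and the median of the tested genes (dashed line); the outermost bins also hold larger changes. Txnip lies right of the median in all 4 panels, by the least in medulla under MK-8722 10 mpk (0.14 against a median of -0.18).

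Set directly against enalapril, mean Txnip was higher under MK-8722 at both doses in both tissues, and the difference was called in 3 of these 4 comparisons. In cortex every library at 10 mpk (107 to 183 FPKM) lay above every enalapril library (81.7 to 101 FPKM), which was so for 3.09% of genes. The log2 fold change was 0.59 ± 0.15 (SE, limma adjusted p = 0.0132), with 3.83% of genes called higher, and 0.61 ± 0.12 after rescaling (limma adjusted p = 0.00121). It was 0.48 without MK-8722 10 mpk replicate 6 (limma adjusted p = 0.0535) and 0.60 in the lower number range alone (limma adjusted p = 0.0684). At 1 mpk the cortex libraries (118 to 148 FPKM) also lay wholly above enalapril, as 19.1% of genes did, with a log2 fold change of 0.57 ± 0.15 (SE, limma adjusted p = 0.00892) and 28.8% of genes called higher. It was smaller after rescaling, 0.37 ± 0.12 (limma adjusted p = 0.0280), and adding relative depth to the model gave 0.42 (limma adjusted p = 0.0544).

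In medulla the difference from enalapril had a like size and lay near the threshold. At 10 mpk the log2 fold change was 0.51 ± 0.15 (SE, limma adjusted p = 0.0759), where 2.73% of genes were called in either direction, and after rescaling 0.56 ± 0.14 (limma adjusted p = 0.0291). It passed the threshold without medulla enalapril replicate 2 (0.60, limma adjusted p = 0.0452) and without MK-8722 10 mpk replicate 1 or 5 (0.57 and 0.64, limma adjusted p of 0.0453 and 0.0165). At 1 mpk every library lay above every enalapril library, as for 5.32% of genes, with a log2 fold change of 0.54 ± 0.15 (SE, limma adjusted p = 0.0360) and 4.33% of genes called higher. After rescaling it was 0.47 ± 0.14 (limma adjusted p = 0.0404) and the values overlapped, with 4 of the 5 libraries at 1 mpk above every enalapril library. That call on the deposited values was lost without medulla enalapril replicate 5, 6 or 7 (0.48, 0.53 and 0.52, limma adjusted p of 0.108, 0.0686 and 0.0724) and without MK-8722 1 mpk replicate 1, 4 or 6 (0.52, 0.53 and 0.57, limma adjusted p of 0.0759, 0.0802 and 0.0773). Relative depth was higher with MK-8722 than with enalapril at 10 mpk, 1.34 ± 0.194 against 1.25 ± 0.167 in cortex and 0.870 ± 0.129 against 0.767 ± 0.0988 in medulla (SD, n = 5 each). At 1 mpk it was 1.06 ± 0.123 against 1.25 ± 0.167 in cortex and 0.798 ± 0.148 against 0.767 ± 0.0988 in medulla (SD, n = 5 each).

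Txnip remained above the lean level in every treated group. Against lean vehicle the log2 fold change was 0.84 ± 0.15 with enalapril (SE, limma adjusted p = 0.000263), 1.41 ± 0.15 with MK-8722 1 mpk (limma adjusted p = 4.56e-08) and 1.43 ± 0.15 with MK-8722 10 mpk in cortex (limma adjusted p = 1.46e-07). In medulla it was 1.37 ± 0.15 with enalapril (limma adjusted p = 1.80e-07), 1.91 ± 0.15 with MK-8722 1 mpk (limma adjusted p = 2.94e-10) and 1.88 ± 0.15 with MK-8722 10 mpk (limma adjusted p = 1.12e-09). Genes called higher made up 20.8%, 55.6% and 27.9% of those tested in cortex and 40.2%, 52% and 36.6% in medulla in these comparisons, and in all 6 the treated libraries lay wholly above the lean ones. That separation was seen in 22.3%, 41.9% and 18.6% of genes in cortex and 27.3%, 39.9% and 21.6% in medulla. Only 2.86% of genes in cortex and 1.19% in medulla had a larger log2 fold change than Txnip for MK-8722 10 mpk against lean vehicle.

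The order of the means was the same in both tissues, with MK-8722 10 mpk highest, then MK-8722 1 mpk, obese vehicle, enalapril and lean vehicle. The mean at 10 mpk exceeded that at 1 mpk by 0.461 FPKM in medulla, far less than the spread within either group. Among neighbours in this order, the step between enalapril and lean vehicle was called in both tissues, and no other step was. In cortex, after rescaling, enalapril and obese vehicle changed places, with 97.4 ± 5.01 rescaled FPKM in enalapril and 96.6 ± 20.9 in obese vehicle (SD, n = 5 each).

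**Figure D5:**
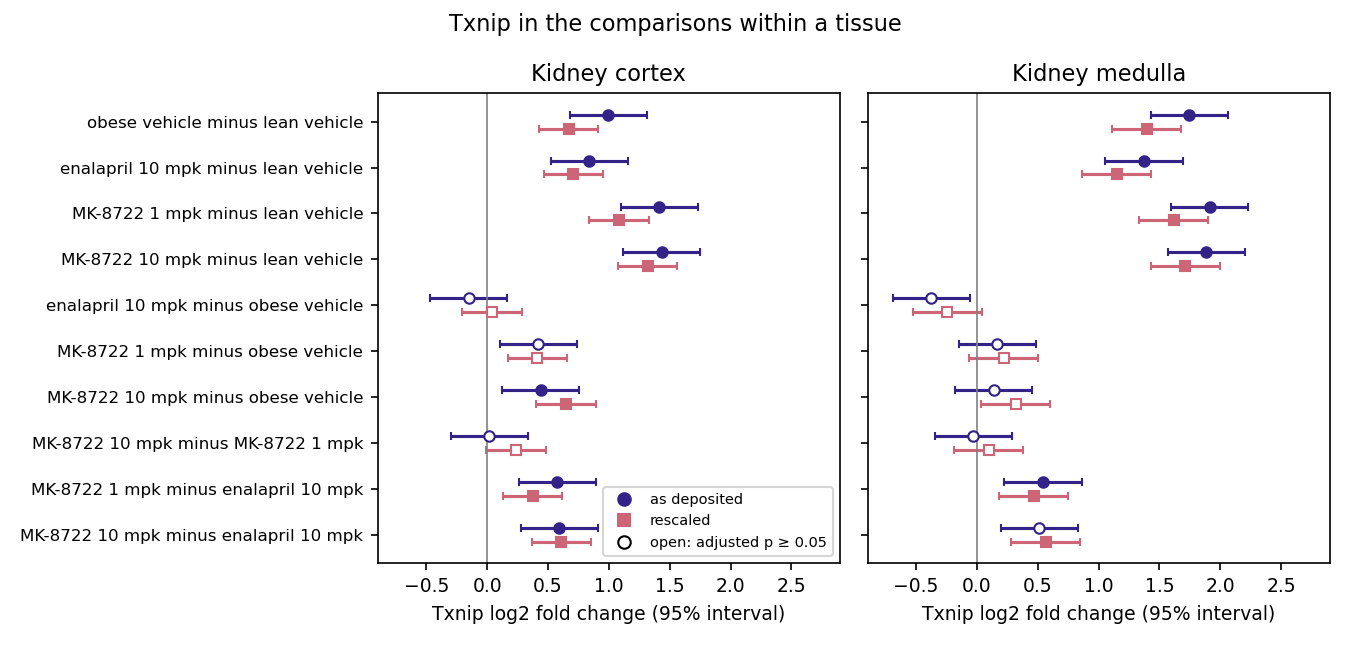
Log2 fold change of Txnip with its 95% interval in the 10 comparisons within each tissue, on values as deposited (circles) and rescaled (squares), filled where the limma adjusted p is under 0.05. All 4 comparisons against lean vehicle are positive and called in both tissues, and those against obese vehicle lie between -0.37 and 0.65.

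Txnip was an abundant transcript, and its spread between libraries of 1 group was larger than that of most genes of like level. Its mean level exceeded that of most tested genes: 3.65% in cortex and 2.33% in medulla had a higher mean on the log2 scale. The SD within groups on that scale was 0.26 in both tissues as deposited, where the 500 tested genes closest in mean level had a median SD of 0.16 in cortex and 0.17 in medulla. Of those 500 genes, 13% in cortex and 22% in medulla varied more than Txnip. After rescaling the within-group SD was 0.20 in cortex and 0.23 in medulla, and 33.6% and 29.6% of the 500 genes closest in rescaled level varied more. As a share of the mean FPKM, the SD was smallest for MK-8722 1 mpk medulla (6.02%) and enalapril cortex (8.01%) and largest for obese vehicle cortex (28.7%).

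By their correlation with Txnip over all libraries of a tissue, the most alike IDs were ENSRNOG00000010775 and ENSRNOG00000012002, among 11126 genes with a mean of at least 2 FPKM in both tissues. Likeness was the lower of 2 Pearson correlations on rescaled log2 values, over the 25 cortex and over the 25 medulla libraries, which share their libraries and their groups with Txnip. ENSRNOG00000010775 had r = 0.949 in cortex and 0.957 in medulla. In cortex it averaged 8.11 ± 2.16 FPKM in obese vehicle and 2.62 ± 0.203 FPKM in lean vehicle, and in medulla 9.96 ± 2.04 FPKM in obese vehicle and 1.67 ± 0.189 FPKM in lean vehicle (SD, n = 5 each). Chosen by a correlation that includes the differences between groups, ENSRNOG00000010775 was bound to share much of the order of groups of Txnip. Its cortex means were 10.3 ± 0.879 FPKM at 1 mpk, 9.35 ± 2.35 FPKM at 10 mpk and 6.18 ± 1.07 FPKM with enalapril. In medulla they were 11.3 ± 0.715, 10.2 ± 2.13 and 6.69 ± 1.47 FPKM (SD, n = 5 each). Its correlation over deviations from the group means, where the differences between groups play no part, was 0.802 in cortex and 0.505 in medulla. ENSRNOG00000012002 had r = 0.927 in cortex and 0.934 in medulla, or 0.595 and 0.571 over deviations from the group means. By the deviations alone these IDs were at places 279 and 114, so many other genes were closer to Txnip within groups, and on the deposited values they were at places 1 and 5. ENSRNOG00000012002 averaged 49.7 ± 8.32 FPKM in obese vehicle and 30.5 ± 2.01 FPKM in lean vehicle cortex, and 59.8 ± 4.28 FPKM in obese vehicle and 29.0 ± 1.38 FPKM in lean vehicle medulla (SD, n = 5 each). Under treatment its cortex means were 54.5 ± 4.25 FPKM at 1 mpk, 51.1 ± 7.08 FPKM at 10 mpk and 39.6 ± 1.27 FPKM with enalapril. In medulla they were 58.5 ± 2.86, 52.1 ± 9.30 and 46.2 ± 5.02 FPKM. Both MK-8722 means in medulla thus lay below obese vehicle, unlike those of Txnip. Of the 11126 genes, 279 had a likeness above 0.8 and 1914 above 0.5, and the median was -0.16.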

How the data were processed

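The authors deposited 1 table of FPKM for 50 libraries, per the file headers; which aligner, counter, annotation and build were used is not given in the sources used here. Per the labels' protocols, total RNA from flash-frozen kidney was depleted of ribosomal RNA and made into stranded libraries. Columns were matched to samples by the library number in the labels, and 0 columns were left unmatched. None of the IDs (0) matched the RefSeq table by Ensembl ID, so pathway and cell type lists by symbol were not used and no gene other than Txnip is named by symbol. The gene, the lists and the tests were chosen with earlier results of these data known.

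FPKM are not counts, so limma 3.58.1 in R 4.3.3 (mean-variance trend, robust moderation) was fitted to log2(FPKM + 0.5) of genes with at least 1 FPKM in 5 or more libraries, on 25 libraries per tissue, and on all 50 for differences between tissues. Adjusted p-values are over all tested genes of a comparison. Exact permutation tests used scipy 1.17.1 in Python 3.11.15. Relative depth came from the steps of 1 read seen in low values. With the step of each gene fitted to the same values, 96.6% of 58583 values (5123 genes) fell within 0.1 reads of a whole number. That share describes the fit and is not a separate check of it. The 2 most alike genes were named by a fixed rule, the highest of the lower correlation in the 2 tissues. The fit was tested on simulated data with known changes. Those values were drawn independently for each gene and library, so that test does not cover library scale, depth or pairing.

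Replicate numbers recur across groups. Same-numbered libraries were taken as paired where all of at least 3 pairs correlated above 0.1 in their deviations from the group means over 13373 genes. This held for cortex MK-8722 10 mpk with obese vehicle (r of 0.247 to 0.415) and for cortex with medulla of MK-8722 10 mpk (0.121 to 0.323), a hint from the data and not from the labels. Libraries of different numbers were not compared in this way, and the values were not rescaled. Whether the number itself links these libraries was therefore not tested. Alternatives were a pseudocount of 0.1, no filter, rescaling by the median ratio, the replicate number as a block, a fit restricted to the groups compared, relative depth or library number range as a term, the lower number range alone, and leaving out each library; the block combined with depth or with rescaling was chosen after seeing the data.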

Additional observations from a re-analysis of the deposited data

Results flagged for a closer look

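The difference between the tissues in the effect of obesity on Txnip passed the threshold narrowly. The cortex effect minus the medulla effect of obese vehicle against lean vehicle was -0.75 on the log2 scale (limma adjusted p = 0.0390), from a log2 fold change of 0.99 in cortex and 1.75 in medulla. The call was kept under 3 of 8 other settings and without 1 library in 8 of 20 fits, and its sign was negative in every one of those settings and fits, called or not. Relative depth also differed between the tissues and between these groups, and its part in the result was measured only as a term in the fit. None of the 10 groups held a library that stood apart from the other 4 by Dixon's test at the 95% level.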

How the results depend on the processing

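All 8 comparisons against lean vehicle kept their direction and their call under every alternative and without any single library; obese vehicle against lean vehicle ranged from 0.89 to 1.15 in cortex and from 1.64 to 1.87 in medulla when 1 library was left out. Over all 29 results, 196 of 234 values under other settings and 292 of 330 without 1 library kept direction and side of the threshold. Where a call or sign moved, the cause was not tested. Absolute depth is unknown, and 5 libraries a group limit the precision.

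With rescaling, enalapril minus obese vehicle in cortex was 0.039, MK-8722 10 mpk minus 1 mpk in medulla 0.10, MK-8722 10 mpk minus enalapril in medulla 0.56 (called), and cortex minus medulla 0.090 in lean vehicle and -0.30 with MK-8722 10 mpk. With relative depth as a term the same differences were 0.052, 0.037, 0.60 (called), 0.13 and -0.10; MK-8722 1 mpk minus enalapril in cortex was 0.42, cortex minus medulla was -0.14 with enalapril and -0.27 with MK-8722 1 mpk, and the obesity effect in cortex minus that in medulla was -0.63. Without the filter, MK-8722 10 mpk minus obese vehicle in cortex (0.44, limma adjusted p = 0.0676), MK-8722 1 mpk minus enalapril in medulla (0.54, limma adjusted p = 0.0631) and the difference in the obesity effect (-0.75, limma adjusted p = 0.0646) were not called. In a fit of the compared groups alone, MK-8722 10 mpk minus obese vehicle in cortex (0.44, limma adjusted p = 0.175), cortex minus medulla with MK-8722 10 mpk (-0.48, limma adjusted p = 0.0615) and the difference in the obesity effect (-0.75, limma adjusted p = 0.0849) were not called. In the lower number range alone, MK-8722 10 mpk in cortex was 0.31 against obese vehicle and 0.60 against enalapril, cortex minus medulla was 0.027 in lean vehicle and -0.46 with MK-8722 10 mpk, and the difference in the obesity effect was -0.66, none called. With the range as a term, cortex minus medulla was 0.051 in lean vehicle and -0.36 with MK-8722 10 mpk, where the call was lost (limma adjusted p = 0.0926). In the exact permutation test the mean difference in FPKM was 34.3 for MK-8722 10 mpk minus obese vehicle in cortex (adjusted p = 0.169) and 0.461 for 10 mpk minus 1 mpk in medulla (adjusted p = 0.968), and the call of cortex below medulla with MK-8722 10 mpk was lost (adjusted p = 0.0694).

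With the replicate number as a block, fitted to the compared groups alone, cortex minus medulla with MK-8722 10 mpk was -0.43 (limma adjusted p = 0.108). Among the pairs of groups taken as paired, no other call differed from that of the fit of all groups. For groups that share only numbers, the block gave -0.42 for enalapril minus obese vehicle in cortex (called, limma adjusted p = 0.0283), 0.13 in cortex and -0.10 in medulla for MK-8722 1 mpk minus obese vehicle, 0.36 for MK-8722 10 mpk minus obese vehicle in medulla, 0.046 for MK-8722 10 mpk minus 1 mpk in medulla, 0.43 for MK-8722 1 mpk minus enalapril in medulla (limma adjusted p = 0.0828) and -0.66 for the difference in the obesity effect (limma adjusted p = 0.0804). Settings chosen after seeing the data were the block with relative depth, which gave 0.61 for MK-8722 10 mpk minus obese vehicle in cortex and -0.48 for cortex minus medulla with MK-8722 10 mpk, and the block with rescaling, which gave 0.66 (called, limma adjusted p = 0.0411) and -0.26.

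Leaving out 1 library gave -0.31 to -0.049 for enalapril, 0.27 to 0.52 for MK-8722 1 mpk and 0.29 to 0.54 for MK-8722 10 mpk minus obese vehicle, -0.090 to 0.10 for 10 mpk minus 1 mpk and 0.48 to 0.68 for 10 mpk minus enalapril in cortex. In medulla it gave -0.50 to -0.26 for enalapril, 0.046 to 0.28 for MK-8722 1 mpk and 0.015 to 0.26 for MK-8722 10 mpk minus obese vehicle, -0.13 to 0.10 for 10 mpk minus 1 mpk, 0.41 to 0.64 for 10 mpk minus enalapril and 0.48 to 0.63 for 1 mpk minus enalapril. Cortex minus medulla ranged from -0.093 to 0.040 in lean vehicle and from -0.61 to -0.38 with MK-8722 10 mpk, and the difference in the obesity effect from -0.87 to -0.60.

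Counts of genes called moved more. Across all settings and left-out libraries, the count in cortex was 1959 (range 1 to 4531) for enalapril minus obese vehicle, 3615 (129 to 5188) for MK-8722 10 mpk minus obese vehicle, 4106 (4 to 5213) for 10 mpk minus 1 mpk and 1308 (225 to 1548) for 10 mpk minus enalapril. In medulla the counts were 1509 (3 to 2347), 2572 (19 to 3244), 840 (0 to 1593) and 388 (15 to 609) for the same comparisons. Obese vehicle minus lean vehicle had 8300 (4581 to 9081) in cortex and 9611 (5451 to 10560) in medulla.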
